A study of Homo sapiens with 4 samples.

Results

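The collagen genes were examined as a group in the DNA methylation data of 4 SKOV3 clones. SKOV3 cells are a long-cultured human line of epithelial ovarian cancer. The members were the autosomal protein-coding genes of the GENCODE annotation on GRCh37 (hg19) whose symbol is COL, a type number from 1 to 28, A and a chain number. This gave 42 of 19229 autosomal protein-coding genes, made up of 11 fibrillar, 6 basement membrane and 25 other collagens.

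The clones carried a control shRNA (shC-S, mesenchymal), a shRNA against the endocytic receptor LY75 (sh-LY75-S, epithelial), the same knockdown plus a shRNA-resistant LY75 cDNA (LY75-R-S, mesenchymal, titled Ly75-OV-S), or a CRISPR knockout of LY75 (LY75-KO-S, epithelial). Reduced representation bisulfite sequencing (RRBS), which reads CpG methylation near the cut sites of the enzyme MspI, was run on 1 library per clone. LY75 itself was not measured in these files. The deposited data were 3 lists of 1000 bp tiles that passed the authors' thresholds for a methylation difference, namely shC-S against sh-LY75-S (the knockdown comparison), LY75-R-S against LY75-KO-S (the knockout comparison), and a mix of both mesenchymal against both epithelial clones. A tile in a list is called listed here. Whether a listed tile gained or lost methylation, and by how much, is not reported here. The lists hold no values per library, so no test between clones was run, and with 1 library per clone the clone and its condition cannot be told apart in the single comparisons.

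Collagens are triple-helical proteins of the extracellular matrix. Fibrillar collagens assemble into the load-bearing fibrils of connective tissue, type IV collagens form the network of basement membranes under epithelia, and the FACIT collagens sit on the surface of fibrils. Cells that move between epithelial and mesenchymal states commonly change the matrix they make and adhere to, and methylation of CpG-rich promoters is commonly associated with silent genes.

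Within 5 kb of the 42 genes, 340 distinct tiles were in at least 1 list. The knockdown list held 264 of them out of 51243 tiles in all, the knockout list 108 out of 28282, and the mix 116 out of 20986. A collagen tile was listed by the knockdown comparison in 39 genes, by the knockout comparison in 33 and by the mix in 37. Over all autosomal protein-coding genes, the share with a listed tile was 60.3%, 46.7% and 38.2% in the same order. COL3A1, a main fibril collagen of skin and vessels, was the 1 member with no listed tile, and it had 1 tile that MspI fragments could reach.

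Because many collagen genes are long, the counts were also set against the tiles that could be read. A tile was called reachable when it held at least 1 CpG within 50 bases of the end of an MspI fragment of 40 to 220 bp in GRCh37, which held for 1310 collagen tiles. The knockdown list held 19.2% of them (95% Wilson interval 17.1 to 21.4%), beside 12.4% of all reachable autosomal tiles and 11.5% of those within 5 kb of any protein-coding gene. The knockout list held 7.48% (6.18 to 9.03%), beside 6.55% and 6.03%. The mix held 8.4% (7.01 to 10.0%), beside 5.13% and 4.78%. The collagen share was thus above the background in the knockdown comparison and the mix by more than counting error, whereas in the knockout comparison the interval held the 6.55% of all reachable tiles and lay just above the 6.03% of tiles near genes. These intervals cover counting error only, neighbouring tiles are not independent, and the mix was made from the same 4 libraries as the single comparisons.

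**Figure D1:**
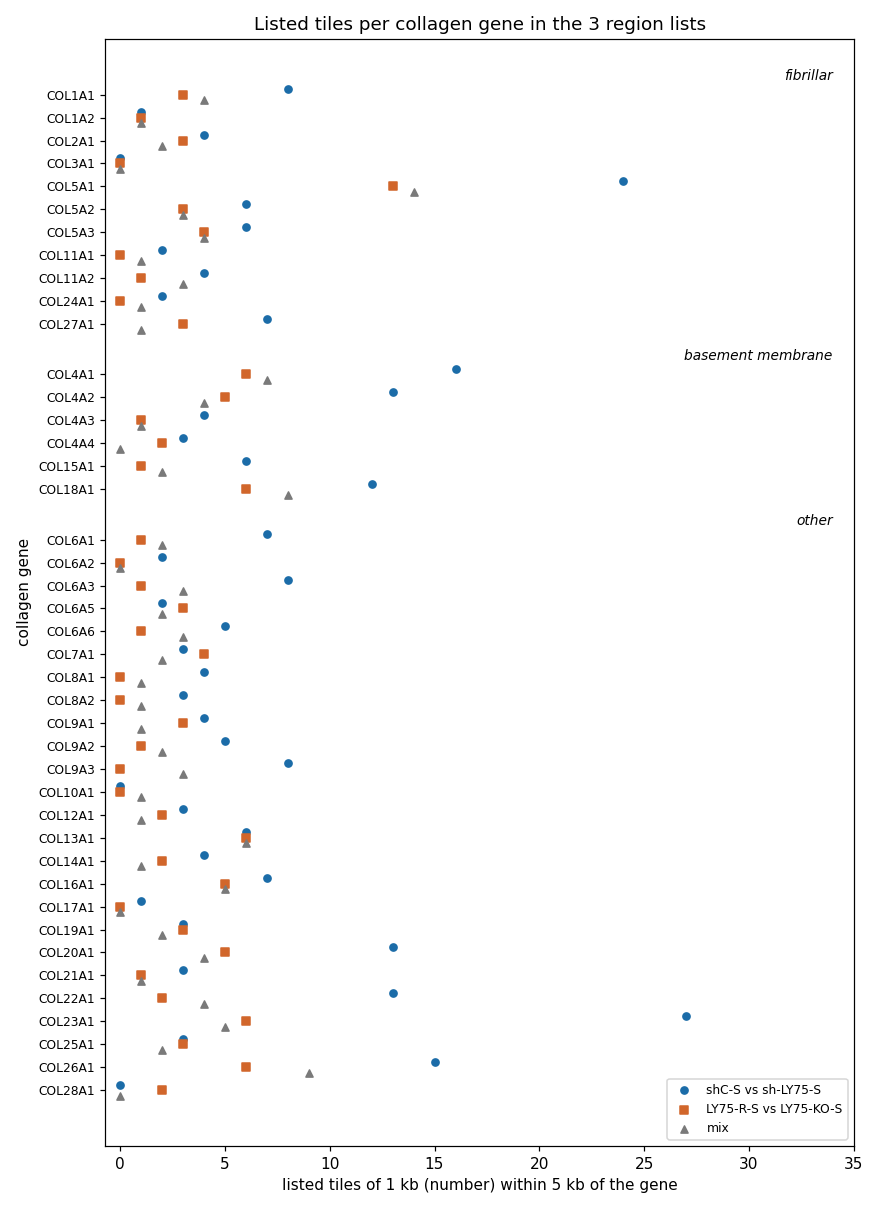
Number of listed 1 kb tiles (x axis) within 5 kb of each collagen gene (y axis), with circles for the knockdown comparison, squares for the knockout comparison and triangles for the mix. COL23A1 had the most in the knockdown comparison (27) and COL5A1 the most in the knockout comparison (13).

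The upstream sequences of 5 genes show the CpGs that stood before a transcription start site (TSS) whose own tile was listed. COL16A1, a FACIT collagen, was the 1 of 42 members whose TSS tile was listed in both single comparisons. Among all 19229 autosomal protein-coding genes this held for 170. The others were listed in 1 of them and were taken in order of symbol. COL11A2 makes a chain of cartilage fibrils, COL1A2 makes the second chain of type I collagen, COL21A1 is a FACIT collagen and COL25A1 a transmembrane collagen. Each sequence is the 180 bases before the canonical TSS on the gene's strand, read 5′ to 3′ from GRCh37, with CpGs in capitals.
COL16A1: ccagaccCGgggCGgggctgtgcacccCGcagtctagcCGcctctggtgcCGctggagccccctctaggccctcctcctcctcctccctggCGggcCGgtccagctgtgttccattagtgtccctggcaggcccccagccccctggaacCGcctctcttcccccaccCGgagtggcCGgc
COL11A2: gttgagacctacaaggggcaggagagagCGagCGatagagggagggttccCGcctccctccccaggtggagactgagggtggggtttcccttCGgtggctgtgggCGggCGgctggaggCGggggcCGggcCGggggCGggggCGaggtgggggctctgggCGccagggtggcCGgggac
COL1A2: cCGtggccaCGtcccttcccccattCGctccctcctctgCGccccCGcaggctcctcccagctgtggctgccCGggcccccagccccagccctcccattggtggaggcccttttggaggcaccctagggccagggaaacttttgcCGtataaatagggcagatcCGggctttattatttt
COL21A1: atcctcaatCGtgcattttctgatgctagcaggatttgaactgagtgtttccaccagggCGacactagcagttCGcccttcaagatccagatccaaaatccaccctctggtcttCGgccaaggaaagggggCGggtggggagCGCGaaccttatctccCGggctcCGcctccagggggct
COL25A1: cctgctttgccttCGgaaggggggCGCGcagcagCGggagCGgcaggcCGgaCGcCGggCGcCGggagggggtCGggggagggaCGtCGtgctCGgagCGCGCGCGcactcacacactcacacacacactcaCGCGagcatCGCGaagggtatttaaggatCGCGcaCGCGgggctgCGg

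These windows held between 8 CpGs in COL1A2 and 27 in COL25A1, beside a median of 14 over the windows of 18967 autosomal protein-coding genes. The MspI site CCGG, which reads the same on both strands, was present in all 5, from 1 copy in COL21A1 to 4 in COL16A1, and in 68.7% of all such windows. The 5 genes were chosen for a listed TSS tile and RRBS reads near MspI sites, so that this comparison is not like for like. The windows lie at chr1:32169619-32169798 (minus strand, COL16A1), chr6:33160245-33160424 (minus, COL11A2), chr7:94024027-94024206 (plus, COL1A2), chr6:56112379-56112558 (minus, COL21A1) and chr4:110223815-110223994 (minus, COL25A1). The tile of COL25A1 was in the knockout list, those of COL11A2, COL1A2 and COL21A1 were in the knockdown list, and that of COL1A2 was also in the mix.

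Promoters, taken as tiles within 2 kb of any annotated TSS, had the highest listed share of any collagen gene part in the knockdown comparison. The interval of that share overlaps those of exons and of the flanks, given below. A listed promoter tile was found in 28 of 42 genes (66.7%, 51.6 to 79.0%), beside 29.6% of all protein-coding genes. In the knockout comparison 12 genes had one (28.6%, 17.2 to 43.6%), beside 13.5%, and in the mix 17 genes (40.5%, 27.0 to 55.5%), beside 14.8%. Adjacent pairs share promoter tiles and were counted for both genes, as the canonical TSSs of COL4A1 and COL4A2 lie 127 bp apart and those of COL4A3 and COL4A4 419 bp apart. Of the reachable promoter tiles, 32.6% (25.2 to 41.0%, n = 132) were in the knockdown list, beside 14.1% for promoters of all protein-coding genes. The same shares were 8.33% (4.72 to 14.3%) beside 4.89% in the knockout list and 13.6% (8.8 to 20.5%) beside 5.99% in the mix.

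In the knockdown comparison 24.2% (12.8 to 41.0%) of the 33 reachable tiles of the downstream flanks were listed. The upstream flanks had 10.3% (3.58 to 26.4%, n = 29). No share over all protein-coding genes was computed for flanks. Exons away from promoters were listed at a share like that of the downstream flanks. Of 433 reachable exon tiles of collagen genes 23.8% (20.0 to 28%) were in the knockdown list and 9.7% (7.26 to 12.9%) in the knockout list, beside 11.6% and 7.02% over all protein-coding genes. Intron tiles were listed at 14.0% (11.6 to 16.8%, n = 691) and 6.22% (4.65 to 8.28%), beside 10.1% and 5.91%. In the knockdown comparison the promoter, exon and intron shares were thus each above that of all genes by more than counting error. When tiles were split by their number of CpGs, the knockdown share of collagen tiles was 21.4% (14.5 to 30.5%) beside 13.6% of all reachable tiles with under 10 CpGs, and 17.7% (15.3 to 20.4%) beside 11% with at least 10 but under 30. It was 21.9% (17.4 to 27.1%) beside 16.1% with at least 30 but under 60 CpGs, and 25% (15.2 to 38.2%) beside 16.1% with 60 or more, where the background lay inside the interval.

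**Figure D2:**
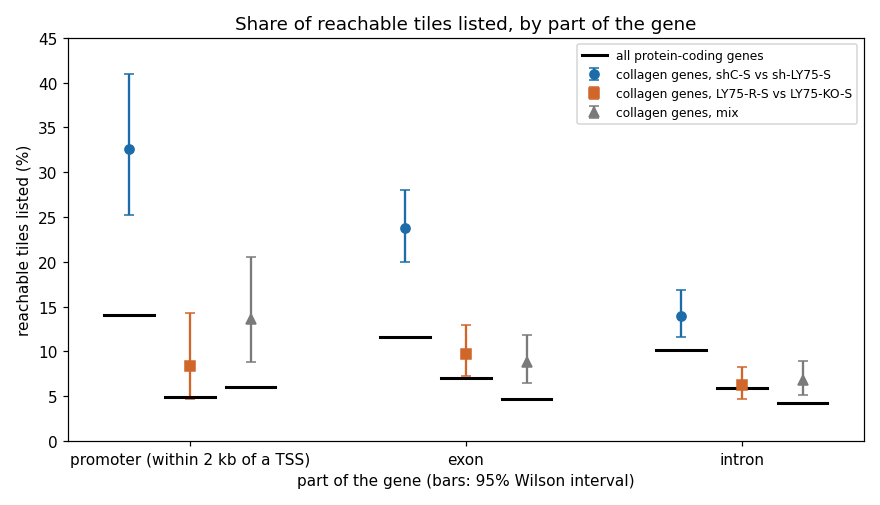
Percent of reachable tiles listed (y axis) in promoters, exons and introns of collagen genes, with 95% Wilson intervals as bars and the same share over all protein-coding genes as black lines. The knockdown comparison listed 32.6% of promoter tiles of collagen genes beside 14.1% for all genes.

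The tile that holds the canonical TSS was listed in 13 collagen genes in the knockdown comparison (31.0%, 19.1 to 46.0%), beside 9.63% of all protein-coding genes. It was listed in 3 genes in the knockout comparison (COL6A1, COL16A1 and COL25A1), beside 2.05%, and in 5 in the mix, beside 4.23%. The knockdown genes were the fibrillar COL1A2, COL2A1 and COL11A2, the basement membrane COL4A4, the microfibril collagens COL6A3 and COL6A6, the anchoring fibril gene COL7A1, the network-forming COL8A2, and the FACIT genes COL9A2, COL9A3, COL16A1, COL21A1 and COL22A1. Of these, COL1A2, COL8A2, COL9A2, COL9A3 and COL22A1 were also the genes listed in the mix. The TSS tile of COL9A3, a chain of the cartilage collagen IX, held 126 CpGs and was part of a run of 3 listed tiles at chr20:61446001-61449000 in the knockdown comparison.

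**Figure D3:**
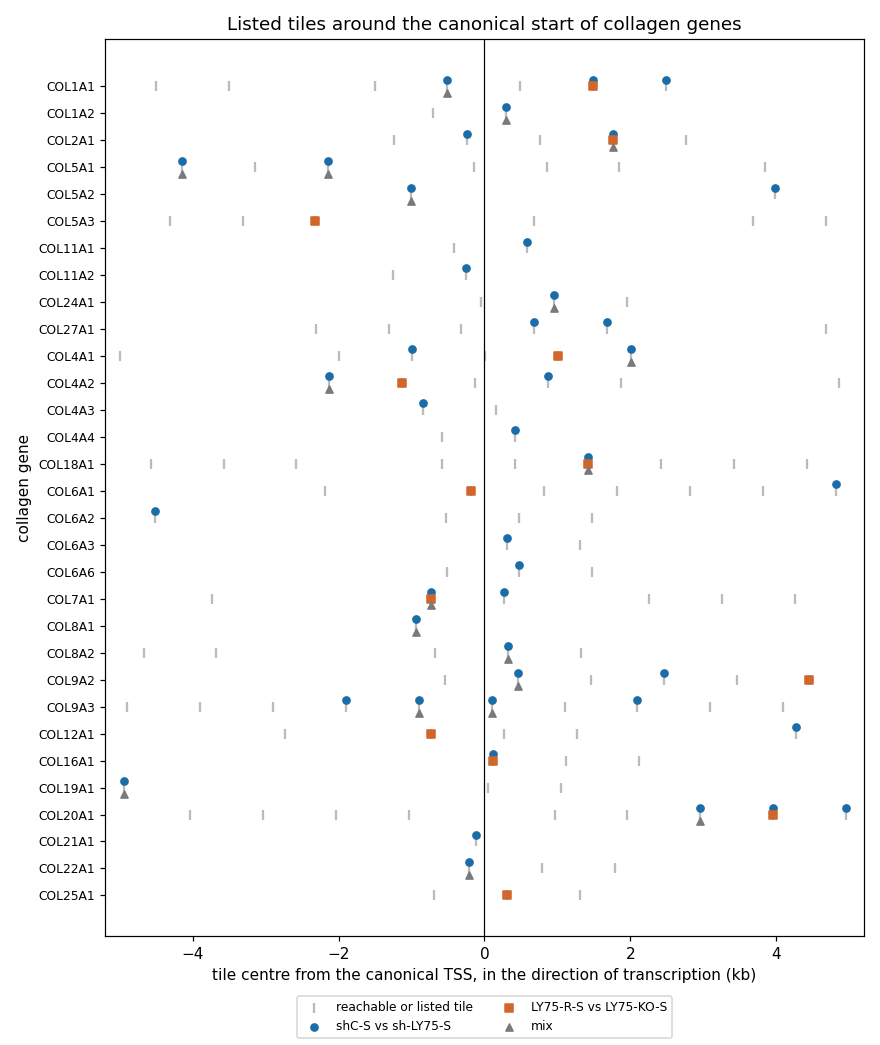
Listed tiles by the distance of their centre from the canonical TSS, in kb along transcription (x axis), for the 31 collagen genes (y axis) with a listed tile within 5 kb. Coloured markers stand for the 3 lists and grey ticks for reachable or listed tiles, and COL16A1 is the 1 gene with a circle and a square on its TSS tile.

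The identical promoter tile was in both single comparisons, which share no library, in 6 genes (14.3%, 6.72 to 27.8%), beside 4.86% of all protein-coding genes. The clones are still related, as LY75-R-S was made from sh-LY75-S cells. In COL1A1, the main chain of type I collagen, it was chr17:48277001-48278000 with 55 CpGs, centred 1492 bp downstream of the TSS. In COL2A1, the collagen of cartilage fibrils, it was chr12:48396001-48397000 with 52 CpGs, centred 1759 bp downstream, and in COL18A1, the source of endostatin, chr21:46826001-46827000 with 48 CpGs, centred 1420 bp downstream. COL7A1 had it upstream, at chr3:48633001-48634000 with 15 CpGs. COL16A1 had it on the TSS itself, at chr1:32169001-32170000 with 43 CpGs, and COL20A1, a FACIT collagen, at chr20:61928001-61929000 with 20 CpGs. This tile of COL20A1 was centred 3962 bp downstream of the canonical TSS and lay 1609 bp from another annotated TSS. The tiles of COL2A1, COL7A1 and COL18A1 were also in the mix, and those of COL1A1, COL16A1 and COL20A1 were not. With promoters of 1 kb the count of 6 genes became 4, with 5 kb it became 7, and at the gene's 5′ end alone 5.

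Over all parts of the genes, 40 collagen tiles were in both single comparisons. They made up 15.2% of the knockdown list's collagen tiles and 37% of the knockout list's, beside 16.0% and 29.2% for all autosomal tiles. The 40 tiles fell in 21 genes, a count for which no share over all protein-coding genes was computed. COL5A1 had the most with 5, with 127 reachable tiles, followed by COL16A1 with 4 and 26 reachable tiles.

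Fibrillar, basement membrane and other collagens were listed at nearly equal shares in the knockdown comparison. The share was 19.0% (15.1 to 23.6%, n = 326 reachable tiles) for fibrillar, 18.8% (14.4 to 24.0%, n = 256) for basement membrane and 19.4% (16.7 to 22.4%, n = 728) for other collagens. In the knockout comparison it was 7.98% (5.5 to 11.4%), 7.42% (4.8 to 11.3%) and 7.28% (5.61 to 9.4%), and in the mix 9.51% (6.78 to 13.2%), 8.2% (5.43 to 12.2%) and 7.97% (6.21 to 10.2%). Within each list the 3 intervals overlap, so that no difference between the groups was detectable.

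**Figure D4:**
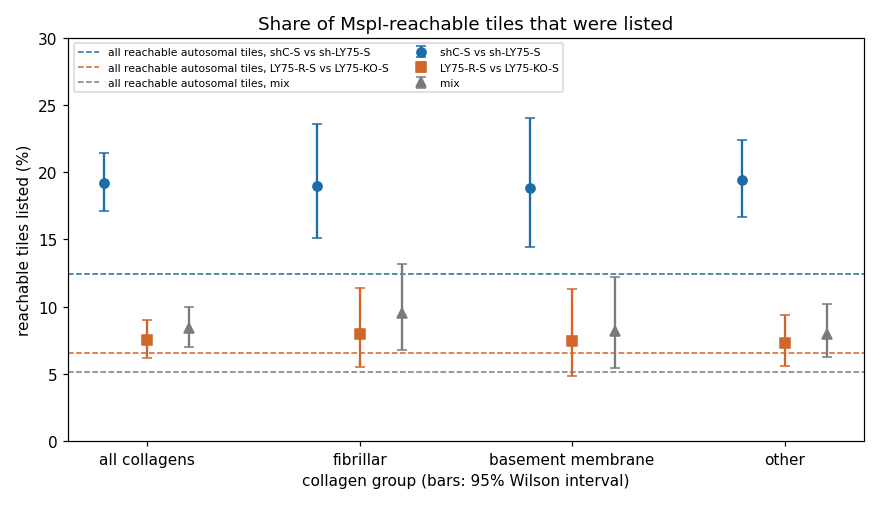
Percent of reachable tiles listed (y axis) for all, fibrillar, basement membrane and other collagens, with 95% Wilson intervals as bars and the share of all reachable autosomal tiles as dashed lines. The 3 groups sit between 18.8% and 19.4% in the knockdown comparison, beside 12.4% for all tiles.

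Among fibrillar collagens, COL5A1, which starts and regulates fibril assembly, had the most listed tiles, with 24 in the knockdown comparison, 13 in the knockout comparison and 14 in the mix. It also had the most reachable tiles of the group (127), and they were mainly in its body, where chr9:137588001-137592000 was a run of 4 listed tiles in the knockdown comparison. Without COL5A1 the fibrillar share was 19.1%, 7.04% and 8.54%. COL1A1 had 8, 3 and 4 listed tiles, of which 7, 2 and 3 were among its 19 reachable tiles. In the knockdown comparison the 8 listed tiles included a run of 3 at its 3′ end, at chr17:48261001-48264000. COL1A2 had 1 in each list with 3 reachable tiles, where the knockdown and mix tile was the TSS tile chr7:94024001-94025000 with 29 CpGs, and the knockout tile lay 15293 bp downstream.

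COL5A2, a partner chain of COL5A1, had 6, 3 and 3 listed tiles, and 60% of its 10 reachable tiles were in the knockdown list, the highest share among the 37 genes with at least 10 reachable tiles. COL5A3 had 6, 4 and 4 listed tiles, and its 1 listed promoter tile, at chr19:10123001-10124000, also lies within 2 kb of a TSS of RDH8. COL2A1 had 4, 3 and 2. The minor cartilage fibril genes COL11A1 and COL11A2 had 2, 0 and 1 and 4, 1 and 3. The late-described fibrillar genes COL24A1 and COL27A1 had 2, 0 and 1 and 7, 3 and 1, and the knockdown tile of COL27A1 just past its start, chr9:116918001-116919000, held 101 CpGs. In promoters of fibrillar genes 44.8% (28.4 to 62.5%) of 29 reachable tiles were in the knockdown list, 6.9% (1.91 to 22%) in the knockout list and 20.7% (9.85 to 38.4%) in the mix. The promoter share in the knockdown list was 28% (14.3 to 47.6%, n = 25) for basement membrane and 29.5% (20.5 to 40.4%, n = 78) for other collagens, beside 14.1% for all protein-coding genes, and the intervals of the 3 groups overlap.

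The type IV genes, whose chains form the basement membrane network, were listed at 21.1% (15.3 to 28.4%, n = 147) in the knockdown comparison, 8.16% (4.73 to 13.7%) in the knockout comparison and 7.48% (4.23 to 12.9%) in the mix. COL4A1 had 16, 6 and 7 listed tiles and COL4A2 13, 5 and 4. Their shared promoter region held 3 listed tiles, of which chr13:110957001-110958000 was in the knockdown list and the mix, chr13:110958001-110959000 in the knockout list, and the CpG-rich chr13:110960001-110961000 with 74 CpGs in the knockdown list. The tile that holds both canonical TSSs was in no list. COL4A3 had 4, 1 and 1 listed tiles and COL4A4 had 3, 2 and 0. Both contain chr2:228028001-228029000, a tile of 58 CpGs that holds the TSS of COL4A4 and was in the knockdown list. COL18A1 had 12, 6 and 8 listed tiles of 94 reachable, and COL15A1, a related basement membrane zone collagen, 6, 1 and 2 (5, 1 and 2 of its 15 reachable tiles), none of them in its promoter.

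Of the other collagens, the FACIT genes had the highest share in the knockdown comparison at 25.1% (20.0 to 31.0%, n = 239), with 9.62% (6.5 to 14.0%) in the knockout comparison and 9.21% (6.16 to 13.5%) in the mix, although its intervals overlap those of the remaining classes. COL20A1 and COL22A1 each had 13 listed tiles in the knockdown comparison, and 5 and 2 in the knockout comparison. The transmembrane genes were listed at 15.2% (11.1 to 20.4%, n = 230), 6.09% (3.66 to 9.96%) and 5.22% (3.01 to 8.9%). The shares of all reachable tiles, 12.4%, 6.55% and 5.13%, lay inside these intervals. Among the transmembrane genes COL23A1 had the most knockdown tiles of all members (27, of which 20 were intronic), 6 knockout tiles and 5 in the mix, with 144 reachable tiles. COL13A1 had 6 tiles in each of the 3 lists, and none was in both single comparisons. Of all autosomal tiles, 16.0% of the knockdown list and 29.2% of the knockout list were in both. COL26A1, which fits none of the classes, had 15, 6 and 9 listed tiles, none in a promoter. The short chain genes COL8A1, COL8A2 and COL10A1 had no tile in the knockout list (0 of 32 reachable, upper Wilson bound 10.7%), beside 6.55% of all reachable tiles. In the knockdown list they had 18.8% (8.89 to 35.3%), beside 12.4%, so that both intervals held the background. COL28A1, with 13 reachable tiles, had 2 listed tiles in the knockout comparison and 0 in the others.

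The number of listed tiles followed the number of reachable tiles across the 42 genes, with Spearman's rho of 0.72 in the knockdown comparison and 0.57 in the knockout comparison, given as a description over genes that share the same libraries. Among the 37 genes with at least 10 reachable tiles, the listed share ranged from 0% to 60% with a median of 18.9% in the knockdown comparison, and 30 of them were above the 12.4% of all tiles. In the knockout comparison it ranged from 0% to 30.0% with a median of 6.45%, and 18 were above 6.55%. In the mix the range was 0% to 20.0%, the median 8.51%, and 27 were above 5.13%.

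The enzymes and chaperones that modify, secrete, trim and cross-link collagen, and the DDR receptors that bind it, were counted in the same way. Of 31 such genes, 20 had a listed tile in the knockdown comparison, 16 in the knockout comparison and 13 in the mix (64.5%, 51.6% and 41.9%), near the 60.3%, 46.7% and 38.2% of all protein-coding genes. A promoter tile was listed in 11, 7 and 4 of them (35.5%, 22.6% and 12.9%), beside 29.6%, 13.5% and 14.8%. None of the 31 had the identical promoter tile in both single comparisons, beside 4.86% of all protein-coding genes. ADAMTS2, which removes the N-propeptide of fibrillar procollagens, had the most with 30, 13 and 13 listed tiles, and it had 124 reachable tiles. No list held a tile of the collagen chaperone SERPINH1 (6 reachable tiles), the cross-linking enzyme LOX (3) or the receptors DDR1 (13) and DDR2 (3). The same held for P4HA1 (11), P3H1 (8) and MIA3 (9).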

How the data were processed

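DNA of 4 SKOV3 clones, 1 library each, was digested with MspI, bisulfite-converted and sequenced as single reads of 50 bp. Per the labels and the submitters' processing notes, reads were trimmed (Trim Galore 0.4.1), aligned to hg19 with Bismark 0.16.1, and compared by the authors with methylKit in tiles of 1000 bp. The deposited names give a difference above 25% and a q-value of 0.01, whereas the methods give an adjusted p-value of 0.05. The coverage minimum is not given in the sources used here, and depth is unknown, so that the precision of each methylation value is unknown. The deposited tables give each tile's position, a p-value, a q-value and a methylation difference. These last 3 are the authors' own comparisons and were not used, so the tables served as region lists. According to the study the mix sets shC-S and LY75-R-S against sh-LY75-S and LY75-KO-S, which the deposited name does not state.

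Tiles were matched by coordinates to GENCODE release 44 (lifted to GRCh37) with Python 3.11.15, numpy 2.4.6 and pandas 2.3.3, and the counting was tested on simulated data. Shares carry 95% Wilson intervals. Since the lists do not hold the tiles that were tested, reachable tiles were computed from the reference, and 93.0%, 90.1% and 94.1% of the autosomal listed tiles of the knockdown, knockout and mix lists were reachable. The sequence windows were read from GRCh37, and 1 window that the rule for sequences named is not reported here. Named in the text were genes with the identical promoter tile in both single comparisons, the genes with most listed tiles in each (ties included), all fibrillar and type IV genes, COL15A1, COL18A1 and genes with no listed tile, while the remaining genes named were chosen after their values were seen. The members and lists were chosen with earlier results of these data known. Alternatives varied the span, the promoter definition, the overlap, the fragment size and a minimum of 10 CpGs.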

Additional observations from a re-analysis of the deposited data

How the results depend on the processing

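The counts of collagen tiles and genes stayed within 1.5 times under every alternative run for them (spans extended by 0 or 10 kb, at least 500 bp of a tile inside, promoters of 1 or 5 kb or at the gene's 5′ end alone). At the 5′ end alone, a listed promoter tile was found in 22 collagen genes in the knockdown comparison (52.4%, beside 25.6% of all protein-coding genes), 11 in the knockout comparison (26.2%, beside 10.8%) and 14 in the mix (33.3%, beside 12.3%). The shares depended on what counts as reachable. With fragments of up to 350 bp the knockdown share was 16.1% for all collagens and 16.3% for the other collagens, beside 10.5% for all tiles. With every tile of at least 10 CpGs as denominator, the knockdown, knockout and mix shares were 8.23%, 3.36% and 3.57% for all collagens, 9.53%, 4.68% and 5.01% for fibrillar, 7.05%, 2.95% and 3.11% for basement membrane and 8.18%, 3.02% and 3.2% for other collagens, beside 4.34%, 2.3% and 1.77% for all tiles. No paired analysis was possible because the lists hold no values per library, each clone had 1 library and no result came from a test, and for the same reasons no replicate could be left out. Unknown coverage limits any statement about tiles that were not listed.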
